A study of Mus musculus with 2 samples.

Results

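The 29 genes described here make cholesterol, set how much of it is made, or move it out of the lysosome, between membranes and out of the cell. They are 19 enzymes of synthesis, 4 regulators and 6 genes of transport and storage, out of 31053 genes in the count tables. They were chosen as a pathway by name, with earlier results of these data known. All 29 had at least 1 UMI (unique molecular identifier, a tag that marks 1 captured transcript) in each library. Single cells were taken from wound tissue of back skin of Mrc1-DTR mice on the C57BL/6 strain, aged 7 to 9 weeks, on day 5 after wounding. Wound bed and back skin were cut out with a 10 mm punch, which is wider than the wounds were made. Cells of the skin around the wound may thus be included. In these mice the promoter of Mrc1, which encodes the mannose receptor CD206, drives the diphtheria toxin receptor, so that toxin is directed at cells with an active Mrc1 promoter, which need not be macrophages alone. 1 library came from mice given PBS and 1 from mice given diphtheria toxin (DTX), and both were sorted as live, 7AAD-negative cells without a marker for any cell type. The labels give the Mrc1-DTR genotype for both libraries, whereas the study text describes controls that lacked the receptor and received toxin, so the control's genotype and agent cannot be settled here. It also attaches the barcode totals to the libraries the other way round, and the names used below follow the labels, on which every direction from PBS to DTX rests.

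Cholesterol is built from acetyl-CoA in a long chain of steps. Enzymes of the mevalonate part make isoprenoid units and farnesyl diphosphate, and enzymes of the sterol part join these into squalene, close the rings and trim lanosterol to cholesterol. The genes of both parts are known targets of SREBP2, the factor encoded by Srebf2, which SCAP escorts out of the endoplasmic reticulum when sterol is low and which INSIG proteins hold back when sterol is high. In the opposite direction, oxysterols activate LXR receptors, which raise the transcription of the efflux pumps Abca1 and Abcg1. Keratinocytes need cholesterol for the skin barrier, and wound macrophages take it up with the cell debris they clear.

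The stretches of promoter shown next belong to 4 enzymes that were at least 2 fold higher in fibroblasts of the DTX library. They were searched for motifs bound by SREBP2 and by its partner NF-Y. They were read from the RefSeq promoter table of build GRCm38.p6, which has 300 bases a window, 250 before to 50 after the start of a gene, and which had an entry for 23 of the 29 genes. Sqle, Fdft1, Fdps, Stard4, Abcg1 and Npc1 had no entry. The sterol regulatory element was searched as TCACNCCAC and the NF-Y motif as CCAAT, on both strands, so that a box on the other strand reads ATTGG. Capitals mark these matches, which do not overlap each other. Hmgcs1, the enzyme that makes HMG-CoA, lies on the plus strand, and the 250 bases before its start are chr13:119690101-119690350.
Hmgcs1: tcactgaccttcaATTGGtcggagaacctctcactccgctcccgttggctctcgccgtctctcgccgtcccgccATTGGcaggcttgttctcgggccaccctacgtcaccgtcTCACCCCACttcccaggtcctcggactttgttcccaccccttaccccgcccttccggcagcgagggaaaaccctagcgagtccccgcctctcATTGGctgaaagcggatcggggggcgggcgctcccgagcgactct

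This window held the only match to TCACNCCAC among the 23 genes with an entry, and its first base stood 137 bases before the start. Over the whole table the motif was in 408 of 32851 windows (1.24%) and in 1.44% of gene symbols. CCAAT was far more common among the members than in the table. It was in the window of 15 of the 16 synthesis enzymes with an entry, of 3 of 4 regulators and of 2 of 3 transport genes, against 37.4% of all windows and 41.1% of all symbols. Acat2, Scap and Abca1 held neither motif. A match of letters is a description and was not linked here to binding. The boxes of the other 3 enzymes are given with 10 bases on each side, or up to the start of the gene, 5′ to 3′ on the strand of the gene. In another annotation, GENCODE, the earliest transcripts of Idi1, Cyp51 and Msmo1 begin 105, 49 and 214 bases before the starts used here. All of their boxes thus lie within the span of an annotated transcript. Idi1 isomerizes the isoprenoid unit and lies on the plus strand, and its boxes, 45 and 14 bases before the start, are in chr13:8885551-8885575 and chr13:8885582-8885605.
Idi1 distal box: cctccagctgATTGGcgagcccggg
Idi1 proximal box: ccaaggtgccATTGGctggcgacc
Cyp51, the lanosterol demethylase, lies on the minus strand with 1 box 29 bases before the start, in chr5:4104712-4104736.
Cyp51 box: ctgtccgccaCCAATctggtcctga
Msmo1, the methylsterol monooxygenase, lies on the minus strand with boxes 160, 96 and 55 bases before the start, in chr8:64733724-64733748, chr8:64733660-64733684 and chr8:64733619-64733643.
Msmo1 distal box: atccgcgcagCCAATgactggcgcc
Msmo1 middle box: ttagcacggaCCAATcactgcacgg
Msmo1 proximal box: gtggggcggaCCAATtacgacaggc

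Barcodes with 500 or more genes and no more than 6% of UMIs from mitochondrial genes were read as cells. Removal of doublets left 7944 cells of the PBS library and 6613 of the DTX library. The median cell had 9579.5 UMIs in the PBS library and 7286 in the DTX library. Cells were clustered without the members, other lipid genes and cell cycle genes, and clusters were called by marker genes. Macrophage-like cells numbered 1703 (21.4%) in the PBS library and 4432 (67.0%) in the DTX library, fibroblast-like cells 3068 (38.6%) and 657 (9.93%), and epithelial-like cells 2066 (26.0%) and 235 (3.55%). Every listed marker of these 3 classes was raised in its own clusters, 10 of 10 for macrophages and fibroblasts and 12 of 12 for epithelial cells. The clusters were named by these same lists, so this is not a separate check of the names. Mrc1 itself was at 492 CPM (UMIs of the gene scaled to 1000000 UMIs of the class) in PBS macrophages and 429 CPM in DTX macrophages. Of all barcodes, 37 occurred in both libraries.

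With 1 library per condition, and with the mice of a group pooled, no test between PBS and DTX was possible. Each value is the summed UMI count of a class divided by all UMIs of that class, with a 95% interval that covers counting error only, and a difference between libraries may come from the mice, the wounds or the preparation as well as from the toxin. A gene is called different at 1.5 fold or more on a log2 scale with 1 CPM added, if the groups compared had at least 50 UMIs together. Intervals of log2 ratios were computed from the counts without the added CPM. Because a UMI marks 1 transcript end, CPM does not grow with the length of a gene.

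The 19 synthesis enzymes were highest in epithelial cells in both libraries. Their summed level there was 918 CPM (907 to 930) in the PBS library and 1311 CPM (1275 to 1347) in the DTX library. In fibroblasts it was 303 CPM (297 to 309) and 540 CPM (526 to 555), and in macrophages 334 CPM (322 to 347) and 407 CPM (400 to 415). The order of macrophages and fibroblasts thus differed between the libraries. Of the smaller classes, Langerhans-like cells, the dendritic cells of the epidermis, came nearest to epithelial cells, at 618 CPM and 1142 CPM. Dendritic-like cells had 493 CPM and 630 CPM and NK or T cells 473 CPM and 517 CPM. Pericyte-like, neutrophil-like and endothelial-like cells lay between 284 CPM and 382 CPM, and in each of them the intervals of the libraries overlapped.

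The 6 transport and storage genes were highest in macrophages and lowest in epithelial cells in both libraries. Their sum was 2932 CPM (2896 to 2969) in PBS macrophages and 2776 CPM (2758 to 2795) in DTX macrophages, 1531 CPM and 1217 CPM in fibroblasts, and 200 CPM and 240 CPM in epithelial cells. Most of it was Npc2, which carries cholesterol inside the lysosome, so the other 5 genes were also summed without it. Without Npc2 the sum was 1010 CPM and 823 CPM in macrophages, 201 CPM and 201 CPM in fibroblasts, and 68.9 CPM and 85.0 CPM in epithelial cells. Set against these 5 genes, the synthesis UMIs came to 0.331 (0.317 to 0.346) per transport UMI in PBS macrophages and 0.495 in DTX macrophages. The same ratio was 1.503 and 2.693 in fibroblasts and 13.3 and 15.4 in epithelial cells, so it was higher in the DTX library in all 3 classes, with intervals that did not overlap in macrophages and fibroblasts and did in epithelial cells.

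**Figure D1:**
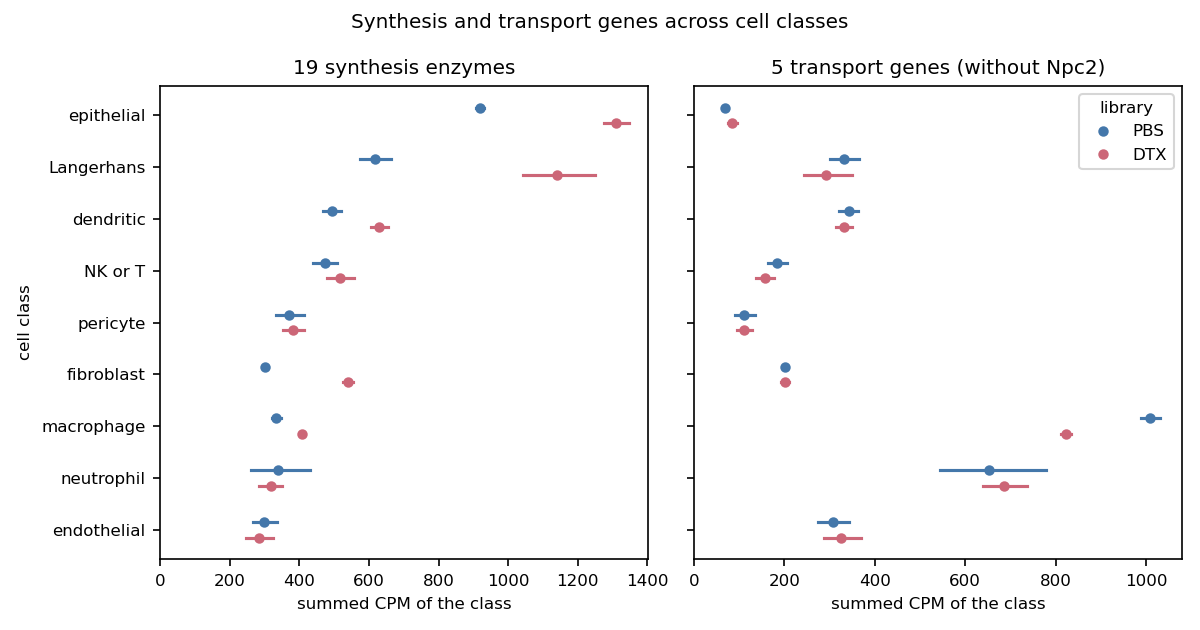
Summed level, in CPM of the class, of the 19 synthesis enzymes and of the 5 transport genes other than Npc2 in 9 cell classes of the PBS and DTX libraries, with lines for the 95% counting interval. Epithelial cells are highest for synthesis (918 and 1311 CPM) and lowest for transport (68.9 and 85.0 CPM), and macrophages are highest for transport (1010 and 823 CPM).

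Gene by gene, 12 of the 19 synthesis enzymes were called higher in epithelial cells than in macrophages in both libraries and none was called lower, where 26.3% of all genes tested in both libraries were called higher and 28.7% lower. In the PBS library the widest gap was in Fdft1, the squalene synthase, at 42.1 CPM in epithelial cells and 2.04 CPM in macrophages, with log2 ratios of 3.83 in the PBS library and 4.16 in the DTX library. In the DTX library it was in Hsd17b7, a ketoreductase of the sterol part, with 3.60 and 4.31. The log2 ratios of other enzymes were close to these, with Idi1 at 3.49 and 4.09 and Fdps, the farnesyl diphosphate synthase, at 3.15 and 4.01. Dhcr7, which reduces the sterol ring near the end of the pathway, had log2 ratios of 2.25 and 3.32, and Cyp51 of 2.35 and 2.51. Acat2, Hmgcs1, Mvk, Sqle, Msmo1 and Sc5d made up the rest of the 12, with log2 ratios between 1.02 and 2.33. The median log2 ratio of the 19 enzymes was 1.94 in the PBS library and 2.15 in the DTX library. Over the 18 enzymes with at least 50 UMIs in the DTX library it was 2.04. For all genes tested the medians were 0.10 and -0.08. Keratinocyte genes were found at low level in macrophages. The 10 keratinocyte genes of a list stood in PBS macrophages at a median of 1.28% of their epithelial level and in DTX macrophages at 0.370%, and at that share RNA from other classes would equal 36.5% of Hsd17b7 and 29.8% of Fdft1 in PBS macrophages.

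Between fibroblasts and macrophages the enzymes were split. Of the 19, 9 were called higher in fibroblasts in both libraries (Acat2, Hmgcs1, Fdps, Ggps1, Fdft1, Sqle, Cyp51, Hsd17b7 and Sc5d) and 3 were called lower (Pmvk, Mvd and Msmo1), with 30.8% and 22.1% of all genes called in these directions. Hsd17b7 had the widest gap upward, with 26.6 CPM in fibroblasts and 2.04 CPM in macrophages of the PBS library, and log2 ratios of 3.18 and 3.38. Pmvk, the phosphomevalonate kinase, had the widest gap downward. It was at 107 CPM in PBS macrophages and 14.5 CPM in PBS fibroblasts, and its log2 ratio was -2.80 in the PBS library and -2.42 in the DTX library. Msmo1 was at 45.6 CPM and 14.3 CPM, with log2 ratios of -1.61 and -1.03. These few abundant macrophage transcripts weigh on the sum, whose log2 ratio of fibroblasts to macrophages was -0.14 in the PBS library and 0.41 in the DTX library, whereas the median over the 19 enzymes was 0.60 and 0.86.

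Epithelial cells and fibroblasts were compared in the same way. In both libraries 11 enzymes were called higher in epithelial cells and none lower, with 19.6% of all genes called higher and 31.6% lower. They were Mvk, Pmvk, Mvd, Idi1, Fdps, Fdft1, Sqle, Cyp51, Msmo1, Sc5d and Dhcr7. Hmgcs1, Lss and Tm7sf2 were called higher in epithelial cells of the PBS library only, Lss and Tm7sf2 with too few UMIs for a call in the DTX library. Within the DTX library, 13 enzymes were called higher in epithelial cells and 1, of the mevalonate part, was called lower. Ebp, the sterol isomerase, was close to level in the 3 classes, at 45.5 CPM to 75.3 CPM over both libraries.

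Regulators were spread less widely. Srebf2 was at 79.4 CPM and 91.2 CPM in epithelial cells, 31.9 CPM and 53.6 CPM in fibroblasts and 25.9 CPM and 33.4 CPM in macrophages of the PBS and DTX libraries, and Srebf2 and Scap were called higher in epithelial cells than in both other classes in both libraries. Insig1, which retains SCAP when sterol is high and is itself a target of SREBP2, followed another order. It was at 50.8 CPM and 88.4 CPM in fibroblasts and at 16.9 CPM and 30.1 CPM in epithelial cells, and it was called higher in fibroblasts than in macrophages and epithelial cells in both libraries. Srebf1, whose product acts mainly on fatty acid genes, was at 11.1 CPM to 16.0 CPM everywhere and was called in no comparison of classes in both libraries.

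Among transport genes, Abca1 and Abcg1, the pumps that pass cholesterol to lipoproteins, were macrophage genes by level. Abca1 was at 534 CPM and 438 CPM in macrophages, 84.9 CPM and 72.2 CPM in fibroblasts and 16.6 CPM and 26.0 CPM in epithelial cells. Soat1, which esterifies cholesterol for storage, was at 172 CPM and 154 CPM in macrophages, 34.3 CPM and 50.6 CPM in fibroblasts and 4.11 CPM and 5.67 CPM in epithelial cells. Npc1, the lysosomal membrane exporter, was called higher in macrophages than in fibroblasts, and both exceeded epithelial cells. Stard4, a cytosolic carrier that is a known SREBP2 target, was the only transport gene called higher in epithelial cells than in macrophages and fibroblasts in both libraries, at 9.83 CPM and 16.2 CPM in epithelial cells and 1.68 CPM and 3.86 CPM in macrophages.

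**Figure D2:**
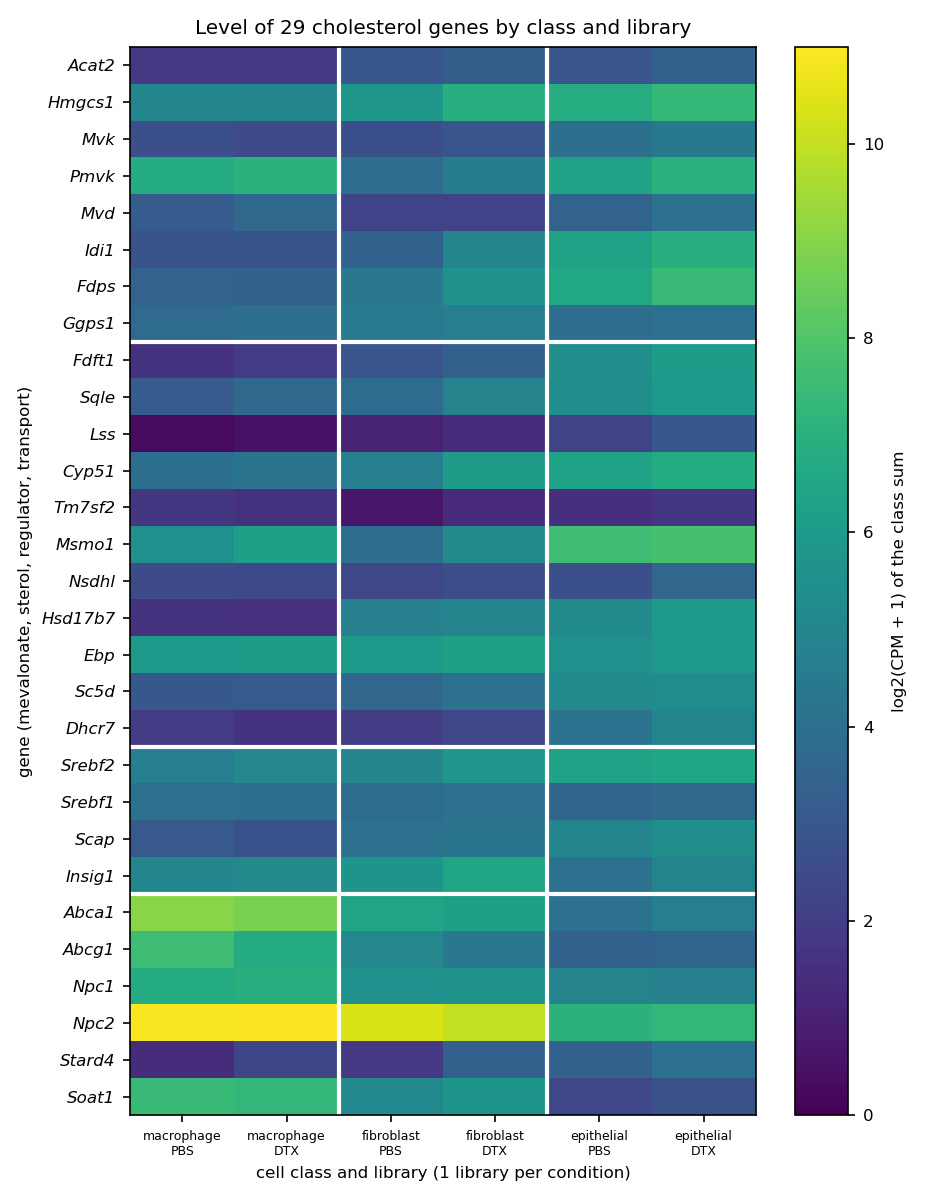
Level of each gene as log2(CPM + 1) of the class sum, with genes in rows by role and the 3 classes of each library in columns. Most sterol enzymes are brightest in the epithelial columns, such as Msmo1 at 193 and 220 CPM, and Abca1, Abcg1 and Soat1 are brightest in the macrophage columns, such as Abca1 at 534 and 438 CPM.

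The comparison of the libraries asks how the genes stood in wounds of mice given toxin. In fibroblasts, the synthesis sum was 303 CPM with PBS and 540 CPM with DTX, a log2 ratio of 0.83 (0.79 to 0.88) or 1.78 fold, and the mevalonate part differed more (0.96, 0.89 to 1.03) than the sterol part (0.72, 0.66 to 0.79). All 19 enzymes had a log2 ratio above 0, of which 7 were called higher and none lower, and 2 of the 4 regulators and 1 of the 6 transport genes were called higher and 1 lower. Over all genes tested in fibroblasts, 7.26% were called higher and 3.98% lower, so the 10 of 29 members called higher stood above the background share. The members were chosen with earlier results of these data known, so this is a description only. The median log2 ratio of the 19 enzymes was 0.45. Over the 18 with at least 50 UMIs it was 0.40, against 0.12 for all genes tested.

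The enzymes called higher in DTX fibroblasts came from both the mevalonate part and the sterol part. Nsdhl, Hsd17b7 and Dhcr7 of the sterol part were not called. Hmgcs1 was at 54.8 CPM (1919 UMIs) with PBS and 117 CPM (1134 UMIs) with DTX, a log2 ratio of 1.08 (0.98 to 1.20). Idi1 was at 9.59 CPM and 30.8 CPM, with the largest ratio of the enzymes, 1.58 (1.45 to 1.91). Fdps was at 20.0 CPM and 49.9 CPM, a log2 ratio of 1.28. The stretch of the Hmgcs1 promoter printed above holds 3 CCAAT boxes, and that of Idi1, of which only the boxes were printed, holds 2. Enzymes not called in fibroblasts had boxes too, with 5 in the window of Mvk, 3 in that of Ggps1 and 2 in that of Mvd. The window of Acat2, also not called, held no box. Whether the boxes go with the difference between the libraries was not tested. In the sterol part, Sqle, the squalene epoxidase, was at 13.4 CPM and 29.3 CPM (1.07), Cyp51 at 26.1 CPM and 65.5 CPM (1.29), and Msmo1 at 14.3 CPM and 35.6 CPM (1.26). Pmvk was at 14.5 CPM and 24.3 CPM (0.71), of which RNA at the level of other classes could account for 19.03% in the DTX library. The 12 other enzymes had log2 ratios from 0.04 for Mvd to 0.64 for Tm7sf2, the latter with 37 UMIs in all, under the minimum of 50.

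Of the regulators, Srebf2 and Insig1 were higher beside the enzymes. Srebf2 was at 31.9 CPM with PBS and 53.6 CPM with DTX, a log2 ratio of 0.73 (0.60 to 0.90), and Insig1 at 50.8 CPM and 88.4 CPM, 0.79 (0.68 to 0.92). Scap was at 16.8 CPM and 18.3 CPM and Srebf1 at 13.9 CPM and 15.9 CPM, both with intervals of the ratio that included 0. Stard4 had the largest ratio of all 29 genes, at 2.57 CPM (90 UMIs) and 9.77 CPM (95 UMIs), a log2 ratio of 1.59, with a counting interval that overlapped that of Idi1.

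The efflux genes of fibroblasts did not share this direction. Abcg1 was at 32.7 CPM with PBS and 20.4 CPM with DTX, a log2 ratio of -0.66 (-0.91 to -0.46), and Abca1 at 84.9 CPM and 72.2 CPM, -0.23 (-0.35 to -0.11). Macrophage genes were higher in DTX fibroblasts, where 10 of them stood at a median of 3.26% of their level in macrophages, than in PBS fibroblasts (0.522%). At that share RNA from other classes would equal 19.8% of Abca1 and 17.2% of Abcg1 in DTX fibroblasts, and both genes were nevertheless lower there. The share is a value of the whole class, and cells differed in it. In the DTX library the 10 macrophage genes summed to 11230 CPM in the fibroblast subcluster led by Cd74 and Lyz2. In the other fibroblast subclusters they summed to 352 CPM to 2416 CPM. Npc1 was level at 46.9 CPM and 47.6 CPM, and Soat1 was at 34.3 CPM and 50.6 CPM, which is a ratio of 0.55 on the log2 scale (0.41 to 0.71), below the 1.5 fold used for a call. Npc2 was at 1330 CPM and 1017 CPM, a log2 ratio of -0.39, and with it the transport sum had a log2 ratio of -0.33 (-0.36 to -0.30), whereas the sum without Npc2 had -0.01 (-0.08 to 0.07).

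In epithelial cells the difference in the sum was smaller than in fibroblasts, and the ratios of the enzymes were more even. The synthesis sum had a log2 ratio of 0.51 (0.47 to 0.56) or 1.43 fold, and all 19 enzymes were above 0. Of them 9 were called higher and none lower, where 8.49% of all genes tested were called higher and 5.25% lower. They were Pmvk, Mvd, Idi1, Fdps, Fdft1, Lss, Nsdhl, Hsd17b7 and Dhcr7, with log2 ratios from 0.60 for Idi1 to 0.92 for Nsdhl, a dehydrogenase that removes the methyl carbons of sterols. Fdps was at 96.4 CPM with PBS and 171 CPM with DTX, a log2 ratio of 0.82 (0.70 to 0.95), and Dhcr7 at 17.4 CPM and 29.9 CPM, 0.75 (0.47 to 1.07). Lss, the cyclase that forms lanosterol, was at 3.76 CPM and 7.21 CPM, and Fdft1 at 42.1 CPM and 67.0 CPM. The median of the 19 was 0.53, which was above the 0.45 of fibroblasts, beside 0.08 for all genes tested in epithelial cells.

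Some enzymes with large ratios in fibroblasts had small ones in epithelial cells. Msmo1 was at 193 CPM and 220 CPM in epithelial cells, a log2 ratio of 0.19 (0.08 to 0.29), against 1.26 in fibroblasts. Cyp51 had 0.40 (0.25 to 0.56) and Hmgcs1 0.53 (0.41 to 0.66), against 1.29 and 1.08. Nsdhl, Hsd17b7 and Dhcr7 had the reverse pattern, with 0.92, 0.69 and 0.75 in epithelial cells and 0.24, 0.18 and 0.34 in fibroblasts. Whether the classes differ in their response was not tested, since each rests on the same pair of libraries. Insig1 was at 16.9 CPM and 30.1 CPM in epithelial cells, a log2 ratio of 0.80 (0.53 to 1.13), and Stard4 had 0.67 (0.30 to 1.12), so both were called higher in epithelial cells and fibroblasts.

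Genes of macrophages were found in epithelial cells beside the transport genes, and their part in the transport values was not separated. Abca1 was at 16.6 CPM with PBS and 26.0 CPM with DTX, a log2 ratio of 0.62, and the transport sum had 0.26 (0.16 to 0.36). The 10 macrophage genes were all found in epithelial cells, at a median of 0.452% of their level in macrophages in the PBS library and 3.26% in the DTX library. Their summed level was 5249 CPM and 4970 CPM. Most of each sum was 1 gene of the list, Apoe, at 4969 CPM and 4014 CPM in epithelial cells, so the sums mainly show Apoe. The list is not specific to macrophages, since in the DTX library its sum was 117% of that in macrophages in dendritic-like cells and 148% in Langerhans-like cells. At a share of 3.26%, RNA at the level of macrophages, with the smaller share of fibroblast RNA, would equal 55.3% of Abca1, 90.03% of Soat1 and 42.2% of Npc2 in DTX epithelial cells. Leaving out the subcluster of epithelial cells led by Lyz2 and Cd74, which was 1.21% of the PBS and 6.81% of the DTX epithelial cells, turned the transport ratio to -0.19. That subcluster also had H2-Aa among its leading genes.

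Macrophages differed least. The synthesis sum had a log2 ratio of 0.29 (0.23 to 0.35) or 1.22 fold, and the median of the 19 enzymes was 0.10. Over the 18 enzymes with at least 50 UMIs the median was 0.05, beside 0.06 for all genes tested. Of these 18, 9 were above 0 and 9 below. 1 enzyme, Msmo1, was called higher, at 45.6 CPM and 73.6 CPM, which is 0.68 on the log2 scale (0.53 to 0.85). Sqle was at 8.04 CPM and 12.5 CPM, 0.58, just under the call. Hmgcs1, Idi1 and Fdps, which were called higher in fibroblasts, were close to level in macrophages, with Idi1 at 6.24 CPM in each library and log2 ratios of -0.03 for Hmgcs1 and -0.04 for Fdps. Lss had 16 UMIs in all, under the minimum. Pmvk, at 107 CPM and 134 CPM, and Msmo1 were the most abundant of the 19 in DTX macrophages and made up most of the difference in the sum.

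Among transport genes of macrophages, Abcg1 was the member with the largest difference downward in any class. It was at 193 CPM (1610 UMIs) with PBS and 107 CPM (3275 UMIs) with DTX, a log2 ratio of -0.85 (-0.94 to -0.77), and was called lower. Abca1 was at 534 CPM and 438 CPM, -0.29 (-0.34 to -0.24), and Soat1 at 172 CPM and 154 CPM, -0.16. Stard4 was called higher, at 1.68 CPM (14 UMIs) and 3.86 CPM (118 UMIs), a log2 ratio of 0.86 (0.39 to 2.11), and Npc1 was at 108 CPM and 121 CPM. In all, 3 of 29 members were called, 2 higher and 1 lower, where 6.69% of all genes tested were called higher and 7.68% lower, so the share of called members was close to the background.

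**Figure D3:**
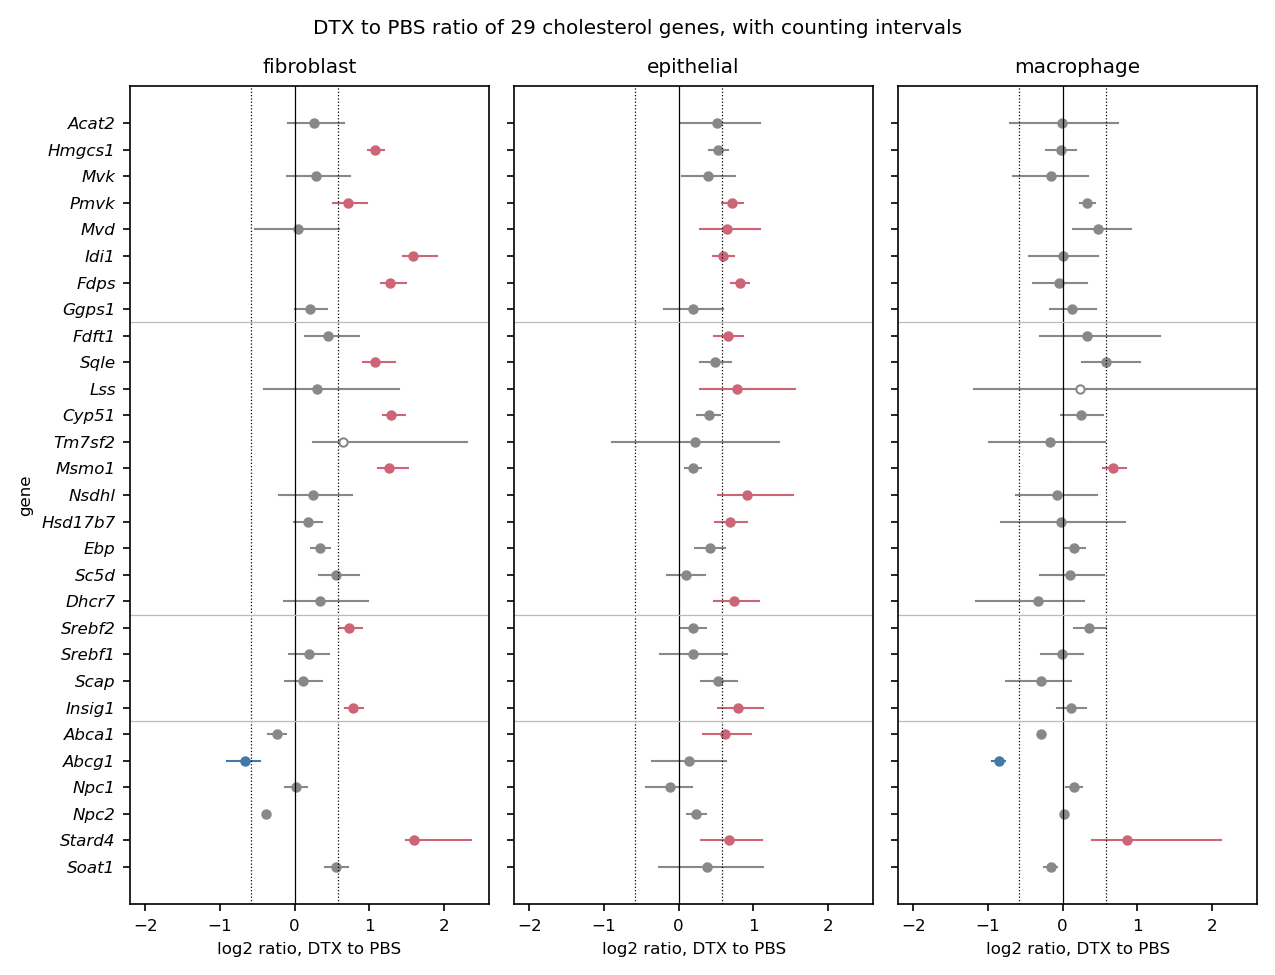
Log2 ratio of DTX to PBS for each gene in fibroblasts, epithelial cells and macrophages, with lines for the 95% counting interval, dotted lines at 1.5 fold, red for genes called higher, blue for genes called lower and open circles for genes under 50 UMIs. Enzymes lie to the right of 0 in fibroblasts and epithelial cells, up to 1.58 for Idi1 in fibroblasts, while Abcg1 lies to the left in fibroblasts (-0.66) and macrophages (-0.85).

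The mix of cells within a class differed between the libraries, so the sums were also compared within subclusters that held at least 20 cells of each library. In fibroblasts 6 subclusters did, and the synthesis sum was higher in the DTX library in all 6. The log2 ratios were 1.14 (1.03 to 1.25) in the subcluster led by Igfbp2 and Ccl8, 0.67 (0.60 to 0.74) in the one led by Sfrp2 and Serpinb2, 0.85 (0.71 to 1.00) in the one led by Ctla2a and Gpx3, and 0.84 (0.70 to 0.98) in the one led by Coch and Fmod. In the subcluster led by Cd74 and Lyz2 the ratio was 0.74, and in the smallest, led by Apod and Ccl11 with 20 and 24 cells, 0.52 with an interval that included 0. Hmgcs1, Idi1, Fdps, Msmo1 and Insig1 were above 0 in all 6 subclusters, Cyp51, Sqle, Srebf2 and Pmvk in 5, and Abca1 in none.

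The transport sum behaved differently within subclusters. Its log2 ratio of -0.33 for all fibroblasts compares with -0.07 to -0.22 within the 6 subclusters. The Sfrp2 subcluster, in which the transport sum was 1133 CPM and 1004 CPM, made up 28.3% of PBS and 44.7% of DTX fibroblasts, and the Igfbp2 subcluster, with 1914 CPM and 1755 CPM, 35.4% and 16.4%. Cell cycle genes were also higher in DTX fibroblasts. Of 12 such genes, 10 were called higher in DTX fibroblasts, where 7.26% of all genes were, and their summed level was 54.3 CPM with PBS and 123 CPM with DTX. Among fibroblasts with no UMI of these 12 genes, 2597 and 522 cells, the synthesis sum was 289 CPM (283 to 295) and 517 CPM (500 to 534). The log2 ratio was 0.84 there and 0.83 in all fibroblasts. A cell with no such UMI may still be cycling. The median fibroblast had 11175.5 UMIs in the PBS and 13960 UMIs in the DTX library, and with every cell thinned to 2000 UMIs the ratio was 0.84. What part cycling or depth has in the difference was not tested.

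Epithelial subclusters differed more from each other than between libraries. Cells led by Krt1 and Krt10, genes of the spinous layer, had a synthesis sum of 1223 CPM with PBS and 1784 CPM with DTX, and cells led by Cst6 and Krt79, genes of the hair follicle infundibulum, 982 CPM and 1459 CPM. Cells named basal, led by Igfbp3, Itga2 and Col17a1, had only 4 of 8 listed basal markers raised. Their synthesis sum was 524 CPM with PBS and 611 CPM with DTX, the latter from 16 cells. A subcluster with Cxcl2 and cycling genes had 503 CPM and 739 CPM. A small subcluster led by Krt42 and Cxcl14, with 37 cells in the PBS and 15 in the DTX library, went the other way, at 1026 CPM (932 to 1127) with PBS and 735 CPM (632 to 850) with DTX. Hence the sum in PBS spinous cells was above that in the DTX cells named basal. In the 3 subclusters with 20 cells of each library, the log2 ratios of DTX to PBS were 0.54 (0.48 to 0.61), 0.57 (0.50 to 0.65) and 0.55 (0.41 to 0.70). Those of the transport sum were -0.18 (-0.42 to 0.04), -0.41 (-0.61 to -0.21) and -0.23 (-0.55 to 0.07), so the first and last intervals included 0. Without Npc2 they were -0.14, -0.53 and 0.08.

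In macrophage subclusters the synthesis sum had no direction as clear. The synthesis log2 ratio was 0.41 (0.30 to 0.52) in the cells led by H2-Eb1 and H2-Aa, genes of antigen presentation, which were 50.6% of PBS and 9.91% of DTX macrophages, and 0.29 (0.13 to 0.46) in those led by Ccl8 and Hspa1a. In the other 4 subclusters compared, which held only 32 to 78 PBS cells, the ratio lay between -0.09 and 0.39 with intervals that included 0. Of single genes, Abcg1 was below 0 in all 6 subclusters, from -0.85 to -0.32. Fdft1 and Msmo1 were above 0 in all 6, and Hmgcs1 and Idi1 in 3. The cells led by Il1r2 and Ramp3 had the highest sum, 535 CPM with PBS and 501 CPM with DTX. Cells led by Arg1 and Cxcl3, with 1000 cells in the DTX library and 6 in the PBS library, had a sum of 345 CPM in the DTX library, and so lay below the 407 CPM of all DTX macrophages. Their transport sum without Npc2 was 1010 CPM, against 823 CPM for all DTX macrophages.

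**Figure D4:**
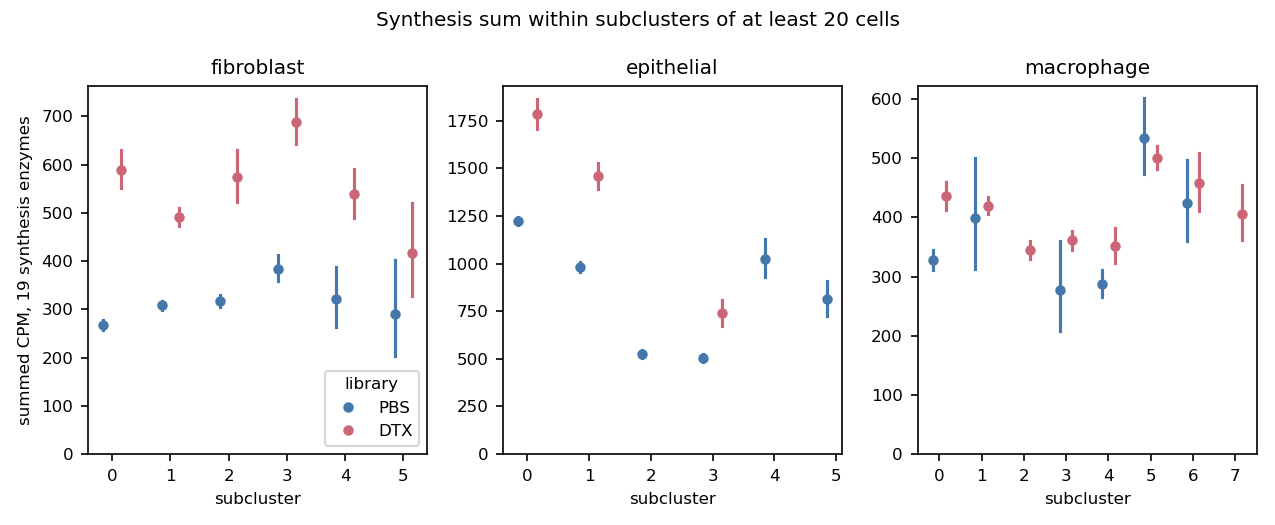
Summed level of the 19 synthesis enzymes, in CPM with 95% counting intervals, in each subcluster of at least 20 cells of a library, numbered by size within each class and drawn on a separate scale for each class. In fibroblasts the DTX point is above the PBS point in all 6 subclusters, from 416 against 291 CPM in subcluster 5 to 589 against 267 CPM in subcluster 0.

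Across the 35 profiles of subclusters and libraries, most enzymes had levels that rank with the sum of the other enzymes, as a description over profiles that share libraries and depth. Spearman's rho was 0.78 for Fdps and Srebf2, 0.75 for Cyp51, 0.67 for Idi1 and 0.66 for Stard4. Over the 35 profiles together, Pmvk, Ggps1, Tm7sf2 and Ebp did not follow the others, with rho between -0.18 and 0.06. Within macrophages, fibroblasts and epithelial cells, Pmvk was at -0.007, 0.24 and 0.92 and Ebp at 0.40, 0.64 and -0.03. In the same order, Ggps1 was at 0.51, 0.18 and -0.37 and Tm7sf2 at -0.42, 0.28 and -0.15. Abca1 was at -0.65, Npc2 at -0.59 and Soat1 at -0.58 over the 3 classes together, whose mean levels differ widely. Within macrophages, fibroblasts and epithelial cells, Abca1 was at -0.67, -0.37 and -0.47, Npc2 at -0.12, -0.08 and -0.28, and Soat1 at -0.71, 0.18 and 0.03. Within fibroblasts alone, with 12 profiles, rho was 0.81 for Cyp51, 0.80 for Idi1 and Fdps, 0.79 for Insig1 and 0.76 for Hmgcs1. It was lowest among the enzymes for Mvk, at -0.03, and Dhcr7, at 0.13. These profiles come from both libraries, so the difference between the libraries is part of each rho. Within macrophages, with 14 profiles, Idi1 was at 0.05 and Hmgcs1 at -0.14, and the enzymes ran from -0.54 for Sc5d to 0.51 for Ggps1.

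Genes of the pathway outside the 29 were read from lists of uptake, efflux, lysosome and storage, and fatty acid genes. Among uptake genes, Mylip, a ubiquitin ligase and known LXR target, was called lower in fibroblasts (-0.66) and macrophages (-1.12), and the scavenger receptor Msr1 was called higher in macrophages (87.4 CPM and 200 CPM, 1.18) and, at 0.942 CPM and 5.45 CPM, in fibroblasts, where the share of macrophage RNA given above would equal 119.6% of the DTX value.

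Of 11 genes of efflux and oxysterols, 8 had enough UMIs to be tested in macrophages. Of these 8, 4 were called lower and none higher, where 7.68% of all genes tested were called lower and 6.69% higher. Apoe, the lipoprotein that accepts cholesterol, was at 11246 CPM and 5233 CPM in macrophages, a log2 ratio of -1.10, and at 1590 CPM and 695 CPM in fibroblasts, -1.19. Pltp, a phospholipid transfer protein, had -1.43 in macrophages and 0.87 in epithelial cells, and Cyp27a1, a sterol hydroxylase, -1.05 in macrophages and -0.94 in fibroblasts. In fibroblasts all 11 were tested, and 2 were called higher and 2 lower (7.26% and 3.98% of all genes). In epithelial cells 7 were tested, and 2 were called higher and 1 lower (8.49% and 5.25%). Arl4c was called higher in fibroblasts (0.80) and epithelial cells (1.39), and Ch25h, which makes 25-hydroxycholesterol, was called higher in fibroblasts (0.75) and lower in epithelial cells (-0.86). Of 14 lysosome and storage genes, 12 had at least 50 UMIs in each class comparison of the libraries. Of these 12, 3 were called lower and 1 higher in macrophages, 2 lower and 1 higher in fibroblasts, and 3 higher in epithelial cells. Single calls are close to the shares of all genes just given, whereas 3 of 12, and 2 of 12 lower in fibroblasts, are above them. Lipa, the lysosomal lipase, was at 174 CPM and 74.3 CPM in macrophages (-1.22) and had 1.01 in epithelial cells. Gramd1b, which moves cholesterol from the plasma membrane, had -1.23 in macrophages and -1.10 in fibroblasts. Nceh1, a cholesteryl ester hydrolase, had -0.88 in fibroblasts and 1.71 in epithelial cells. RNA at the level of other classes would equal 37.1% of Lipa, 77.0% of Nceh1 and 71.3% of Pltp in DTX epithelial cells. Of 12 fatty acid genes, 2 of the 11 tested were called higher in fibroblasts, where 7.26% of all genes were. In epithelial cells 1 of 10 was called higher (8.49% of all genes), and in macrophages 3 of 10 were called lower (7.68%). Scd2, a fatty acid desaturase, was at 0.91 in epithelial cells and -0.78 in macrophages. Pltp was among the leading genes of macrophages led by H2-Eb1 and H2-Aa, 50.6% of PBS and 9.91% of DTX macrophages. Pltp and Apoe were among those of fibroblasts led by Ctla2a and Gpx3, 25.7% of PBS and 9.59% of DTX fibroblasts. The paper lists Pltp, Lipa and Gramd1b among top genes of its C1qa-positive macrophages. Genes of the uptake, efflux, lysosome and fatty acid lists were not compared within subclusters. What part the mix of cells has in their ratios was not tested.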

How the data were processed

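Live cells from 2 libraries, 1 PBS and 1 DTX, were captured with a droplet kit that reads 3′ ends. The study's methods state 3 mice per group, pooled, and technical but no biological replicates, and the files hold 1 count table per condition. Per the labels, the authors made the deposited UMI counts with Cell Ranger (6.1.1 in the submitters' processing notes) on build mm10, with no normalization. The tables held 12058 barcodes and 105511870 UMIs for PBS and 11031 barcodes and 81858751 UMIs for DTX. Depth sets the counting error of each value, and thinning the cells also moved some ratios outside their counting intervals, as given below.

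From these counts, barcodes with 500 or more genes and up to 6% of UMIs from mitochondrial genes were kept as cells. The upper limit of 2000 genes in the study's methods was tried as an alternative only. Scrublet, in scanpy 1.11.5 with an expected rate of 8%, called 382 doublets in PBS and 0 in DTX, where the top 575 scores (8.00%) were removed instead. Seurat 5.3.0 clustered the cells on 2000 variable genes and 30 principal components at resolution 0.2, and clusters were named by listed markers, with a scoring rule set after the clusters were seen. A class needed at least 3 raised markers, and 50% of its list if 1 was among the 10 leading genes or 75% otherwise. Each class was clustered again into subclusters, at resolution 0.5 for macrophages.

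Counts were summed per class and library, so no test between conditions was made. Intervals are exact Poisson intervals for levels and exact conditional binomial intervals for ratios, at 95%. The share of RNA from other classes was estimated over each whole class from lists of 10 genes of each class, and free RNA and mixed cells were not told apart. The count of genes past a fold and the interval were tried on Poisson counts drawn from the PBS class sums with planted folds. That draw has no variation between cells, mice or libraries, so it says nothing about such variation. Every member was to be described in the 3 classes, with full values for those past the fold between libraries in a class or between classes in both libraries, and other pathway genes with values where past the fold in at least 2 classes. Some genes of the pathway lists are not reported here. The members and lists were chosen with earlier results of these data known. Promoters come from the RefSeq table of GRCm38.p6.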

Additional observations from a re-analysis of the deposited data

How the results depend on the processing

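No paired analysis was possible because each condition has 1 library, and for the same reason no replicate could be left out. Values below are log2 ratios, and a ratio is given where an alternative put it outside the counting interval of the main value; the cause was not tested. Leaving in doublets gave 0.72 for fibroblast and 0.44 for epithelial synthesis (DTX to PBS), -0.27 for fibroblast and 0.54 for epithelial transport, -0.057 for synthesis in fibroblasts to macrophages (PBS), and 1.60 in epithelial cells to macrophages (DTX). A limit of 2000 genes per cell gave 0.14 for macrophage, 0.77 for fibroblast and 0.81 for epithelial synthesis, 0.085, -1.22 and -0.23 for transport in these classes, -0.23 for fibroblasts to macrophages (PBS) and 2.10 for epithelial cells to macrophages (DTX). Thinning each cell to 2000 UMIs gave 0.61 for epithelial synthesis, -0.032 for macrophage transport and 1.34 for epithelial cells to macrophages (PBS). Centring on the median gene gave 0.22, 0.71 and 0.44 for synthesis in macrophages, fibroblasts and epithelial cells, -0.14 and -0.45 for transport in macrophages and fibroblasts, -0.33 and 0.30 for fibroblasts to macrophages and 1.35 and 1.77 for epithelial cells to macrophages (PBS, DTX). The median gene in place of the sum gave 0.10 and 0.45 for macrophage and fibroblast synthesis, -0.10 for fibroblast transport, 0.60 and 0.86 for fibroblasts to macrophages and 1.94 and 2.15 for epithelial cells to macrophages. Transport without Npc2 was -0.29 in macrophages and -0.0056 in fibroblasts. At 2 fold, 7 members were past the fold in fibroblasts and 0 in epithelial cells and macrophages. The signs of macrophage and epithelial transport and of fibroblasts to macrophages (PBS) thus depend on the setting, while the synthesis ratios of DTX to PBS stayed above 0 in the alternatives run. The order of fibroblasts and epithelial cells in these synthesis ratios also depends on it. Epithelial cells were below fibroblasts in the main setting and above them with the limit of 2000 genes per cell and with the median gene.

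Chosen after seeing the data were 2 alternatives. Without subclusters led by macrophage genes, transport was -0.38 in fibroblasts and -0.19 in epithelial cells. In cells with no cell cycle UMI, synthesis was 0.56 in epithelial cells (DTX to PBS), -0.21 in fibroblasts to macrophages (PBS) and 1.75 in epithelial cells to macrophages (DTX). Added CPM of 0.1 or 10, clustering with all variable genes and resolution 0.5 left each value inside its counting interval. In classes with few cells, such as the 235 DTX epithelial cells, depth limits the members under 50 UMIs.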
